A study of Homo sapiens with 12 samples.

Results

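Long noncoding RNAs are transcripts that work without being translated. The data describe 8 of them, chosen by name: the abundant nuclear RNAs NEAT1 and MALAT1, the small nucleolar RNA (snoRNA) host genes GAS5 and SNHG1, the widely expressed TUG1 and PVT1, and the prostate RNAs PCGEM1 and PCA3. All 8 had an Ensembl identifier among the 54127 gene rows of the count files. Of these 8 genes, 7 had at least 20 reads summed over all samples, and 6 passed the expression filter and were tested among 14501 genes. PCGEM1 had no read in any sample, and PCA3 had 77 reads in all.

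The cells were C4-2, a human prostate cancer epithelial line derived from LNCaP. In each of 6 samples they received a CHKA-directed siRNA pool at 50 nM (siCHKA). CHKA is the gene of choline kinase alpha, the enzyme that phosphorylates choline at the start of phosphatidylcholine synthesis. In the other 6 samples they received the same dose of nontargeting siRNA (siNT). Both groups were grown in serum-containing medium and transfected with the same lipid reagent, so all 12 samples carry siRNA and come from a single line. The study calls the replicates biological, as triplicates for one analysis and as a larger number for another, but the sample labels do not tie them to separate cultures. The p-values therefore measure the spread between these samples, part of which may be technical. RNA was sequenced from libraries made with an mRNA kit, as single-end reads of 40 bases.

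NEAT1 is the RNA scaffold of paraspeckles, nuclear bodies built with the proteins NONO and SFPQ. Its short form ends in a regular poly(A) tail, whereas the long form, which builds the body, does not. MALAT1 resides in nuclear speckles, the stores of splicing factors, and its end is also made by RNase P cleavage rather than polyadenylation. GAS5 and SNHG1 carry snoRNAs in their introns. Their spliced RNAs are described as beginning with a run of pyrimidines, as those of ribosomal protein genes do. They are removed during translation by nonsense-mediated decay. GAS5 was named for its accumulation in growth-arrested cells and can bind the glucocorticoid receptor. TUG1 is a spliced RNA found in nucleus and cytoplasm, PVT1 lies beside MYC, and PCGEM1 and PCA3 are RNAs of prostate epithelium. PCA3 lies within an intron of PRUNE2 on the opposite strand and is used as a urine marker of prostate cancer.

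Short stretches of sequence show the ends by which these RNAs differ, written in the direction of transcription in GRCh38 (GENCODE 44, and RefSeq for SNHG1). The first 30 bases of GAS5 (chr1:173867960-173867989, minus strand) and SNHG1 (chr11:62855856-62855885, minus strand) show the leading pyrimidines in capitals. In MALAT1 (chr11:65506087-65506116, plus strand) the capitals mark the genome-encoded run of A followed by GCAAAA, and in the short form of NEAT1 (chr11:65426484-65426513, plus strand) they mark the polyadenylation signal within its last 30 bases.
GAS5: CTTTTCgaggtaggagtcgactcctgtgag
SNHG1: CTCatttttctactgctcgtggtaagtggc
MALAT1: ttttctagcttAAAAAAAAAAAAAGCAAAA
NEAT1: tcttcccctttacagcacaAATAAAgtttg
GAS5 opened with an uninterrupted run of 6 pyrimidines starting with C, a feature of 1.98% of the 62700 canonical transcripts of GENCODE 44. At its RefSeq start, which lies inside the gene body of GENCODE 44, the run of SNHG1 was only 3 bases long. Of canonical transcripts, 5.72% begin with at least that much. A run of at least 8 A followed by GCAAAA occurred in 0.0654% of canonical transcripts, and once in MALAT1, which GENCODE 44 gives as 10434 bases. GENCODE 44 lists 9 NEAT1 transcripts. The short one shown here has 3301 bases and the long form 22743.

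Between 10685184 and 24246055 reads per sample fell on genes, so 3 counts correspond to between 0.124 and 0.281 CPM, the count relative to library size. The targeted gene CHKA stood at 2.75 ± 1.03 CPM with siCHKA and 40.7 ± 2.55 CPM with siNT (SD, n = 6 each). Luminal prostate markers were abundant, KLK3 reaching 3252 ± 340.4 CPM (SD, n = 6) after siNT, whereas most markers of other cell types failed the expression filter, and over all samples 1 read was counted on the basal keratin KRT5 and none on the T cell gene CD3E or the neuroendocrine INSM1. Those that passed were all higher after siCHKA: basal KRT14 (314 reads, log2 fold change 0.58, edgeR adjusted p = 0.00247), stromal COL1A1 (0.82, adjusted p = 7.31e-07) and ACTA2 (0.89, adjusted p = 0.00984), CD68 of the leukocyte list (830 reads, 0.68, adjusted p = 0.000255) and SYP of the neuroendocrine list (338 reads, 0.74, adjusted p = 0.00614). The 6 stromal markers together ranged from 25.2 to 31.7 CPM after siCHKA and from 11.9 to 19.6 CPM after siNT, nearly all of it COL1A1, while the 4 basal, 4 leukocyte and 4 neuroendocrine markers each summed to between 0.647 and 6.05 CPM. The part of these markers in the results below was not tested. Reads on no annotated gene made up 6.70% to 8.54% of those that were assigned to genes, were ambiguous or lay outside genes in siCHKA samples and 5.49% to 6.63% in siNT samples, and the part of this difference in the results was not tested.

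The siCHKA samples fell into 2 sets. The root mean square difference in log2 CPM over all tested genes was 0.24 to 0.28 for pairs within replicates 1, 3 and 5, 0.22 to 0.23 for pairs within replicates 2, 4 and 6, and 0.31 to 0.39 for pairs across these sets. It was 0.26 to 0.38 for pairs of siNT samples. Within siNT replicates 1, 2 and 3 it was 0.26 to 0.29, and within siNT replicates 4, 5 and 6 it was 0.30 to 0.36. Across these siNT replicates it was 0.30 to 0.38. CHKA was at 1.91 to 2.34 CPM in replicates 1, 3 and 5 and at 2.27 to 4.67 CPM in replicates 2, 4 and 6, and reads outside genes made up 6.70% to 7.76% and 7.45% to 8.54%. Of the 6 tested long noncoding RNAs, 5 were higher in every one of replicates 2, 4 and 6 than in any of replicates 1, 3 and 5, which 22.9% of all tested genes were, and TUG1 was not. Each result on the 6 tested RNAs is therefore given for all 6 siCHKA samples and for each set of 3 against the same siNT samples. Among siNT samples, SNHG1, GAS5, NEAT1 and PVT1 were higher in each of replicates 1, 2 and 3 than in any later replicate. MALAT1 and TUG1 did not show this order. The order was noticed in the values themselves, its share over all tested genes was not counted, and its cause was not tested.

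After siCHKA, TUG1 and SNHG1 were lower and GAS5 was higher, and no change was called for NEAT1, MALAT1 or PVT1. Of the 6 tested RNAs, 2 were lower and 1 was higher at an adjusted p below 0.05 in edgeR's quasi-likelihood test, against 30.1% of all tested genes lower and 32.1% higher. With 62.2% of all tested genes called, the 3 of 6 called here are no more than the background. Among the 962 tested genes that GENCODE 44 calls lncRNA, 8.42% were lower and 49.5% higher, with a median log2 fold change of 0.42, beside 0.03 over all tested genes and −0.10 over the 6 RNAs. Scaling by library totals alone raised the median of all genes by 0.15 on the log2 scale, and 69.0% of called genes were then higher, beside 51.5% with TMM normalization.

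**Figure D1:**
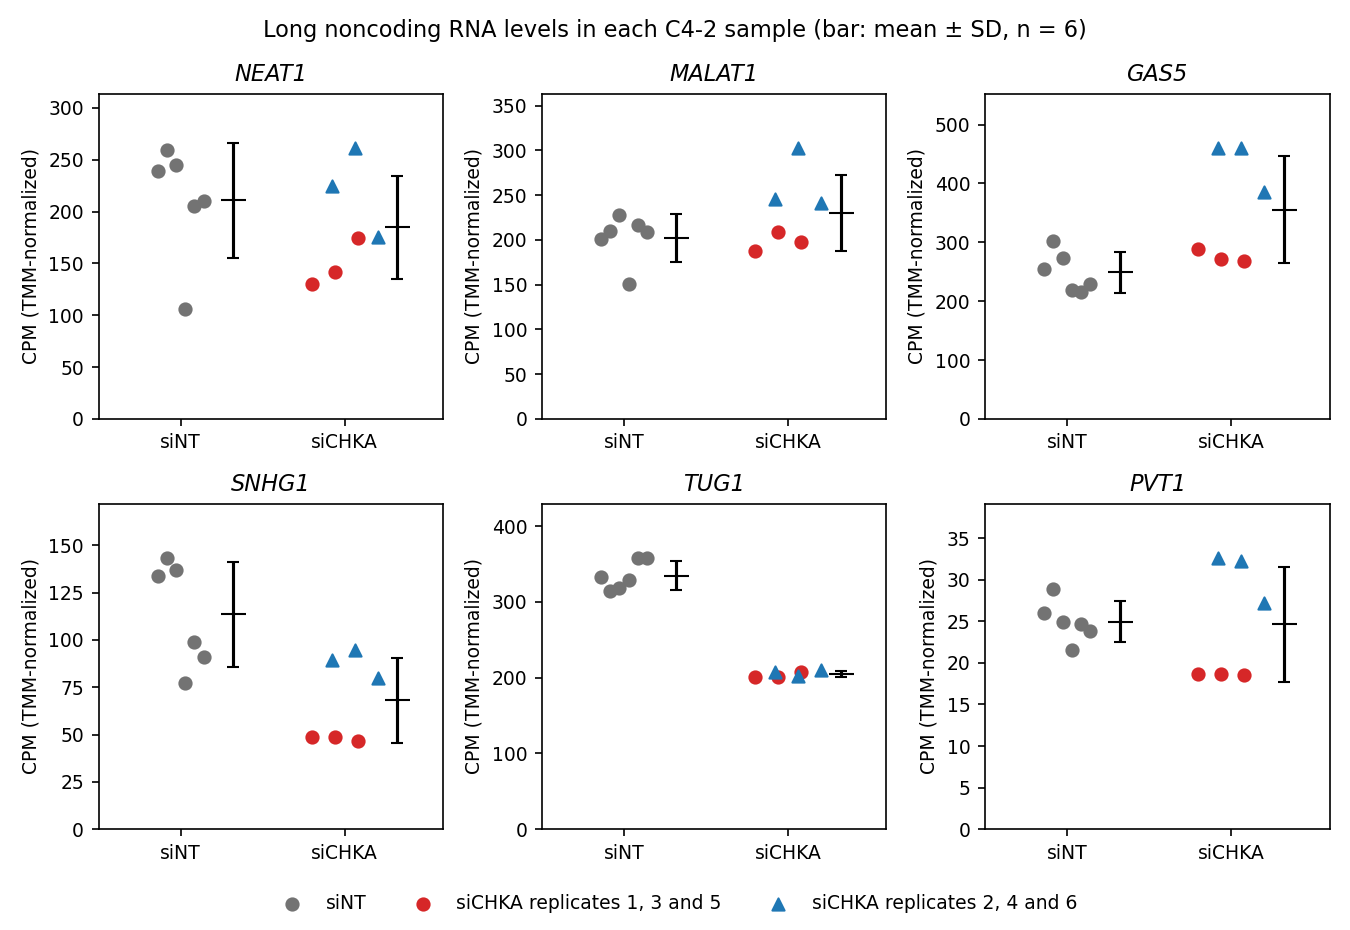
CPM (TMM-normalized, linear axes from 0) of the 6 tested long noncoding RNAs in each siNT (grey) and siCHKA sample, with replicates 1, 3 and 5 as red circles and 2, 4 and 6 as blue triangles, and the mean ± SD of 6 samples beside each group. TUG1 was between 200.9 and 210.6 CPM in every siCHKA sample, and the triangles lie above the circles in the other 5 panels.

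TUG1 (ENSG00000253352; chromosome 22, 30969245 to 30979395, plus strand) was lower in every siCHKA sample. After siNT it was at 332.6, 314.1, 318.1, 328.6, 358.0 and 357.8 CPM in replicates 1 to 6. After siCHKA it was at 201.4, 207.7, 200.9, 202.5, 207.5 and 210.6 CPM. The highest siCHKA sample was far below the lowest siNT sample, a separation in this direction that 21.5% of tested genes had. The log2 fold change was −0.71 (SE 0.05, edgeR adjusted p = 1.01e-09), which left 61.3% of the siNT level, and the two-sided exact permutation p was 0.00216, the smallest that 6 against 6 samples allow. It was −0.72 in replicates 1, 3 and 5 and −0.70 in replicates 2, 4 and 6. The coefficient of variation among siCHKA samples was 1.96%, beside 1.61% from counting alone. GENCODE 44 gives TUG1 the biotype protein_coding, so it is not among the 962 lncRNA genes above.

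SNHG1 (ENSG00000255717; chromosome 11, 62851978 to 62855953, minus strand) was lower after siCHKA, by unequal amounts in the 2 sets, whose difference was not tested. After siNT it was at 133.6, 143.2, 136.7, 77.2, 99.0 and 91.0 CPM in replicates 1 to 6. After siCHKA it was at 48.8, 89.4, 48.5, 94.8, 46.7 and 79.7 CPM. Replicates 1, 3 and 5 were below every siNT sample, and the other 3 overlapped the lower siNT samples. The log2 fold change was −0.74 (SE 0.19, edgeR adjusted p = 0.00333; exact permutation p = 0.0195). It was −1.24 in replicates 1, 3 and 5 (adjusted p = 4.18e-06) and −0.38 in replicates 2, 4 and 6, where the call was lost in edgeR (adjusted p = 0.0506).

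GAS5 (ENSG00000234741; chromosome 1, 173858559 to 173868882, minus strand), the other snoRNA host, was higher after siCHKA. After siNT it was at 253.9, 302.7, 274.1, 218.4, 215.3 and 229.4 CPM. After siCHKA it was at 288.4, 460.7, 271.8, 460.0, 268.2 and 385.3 CPM. Replicates 2, 4 and 6 exceeded every siNT sample, whereas replicates 1, 3 and 5 lay within the siNT range. The log2 fold change was 0.51 (SE 0.14, edgeR adjusted p = 0.00399; exact permutation p = 0.0238). It was 0.80 in replicates 2, 4 and 6 (adjusted p = 3.84e-06) and 0.15 in replicates 1, 3 and 5, where the call was lost in edgeR (adjusted p = 0.164). GAS5 overlaps ZBTB37 in the annotation, and reads that matched more than 1 gene were left out by the counting.

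Both hosts were higher in replicates 2, 4 and 6 than in 1, 3 and 5, GAS5 by 1.58-fold and SNHG1 by 1.83-fold in their mean CPM, and among siCHKA samples their ratio varied less than either level. The ratio of GAS5 to SNHG1 reads, which no scaling of libraries can alter, was 1.90 to 2.83 in siNT samples (2.26 ± 0.350; SD, n = 6) and 4.83 to 5.90 in siCHKA samples (5.35 ± 0.463; SD, n = 6). The groups did not overlap, and the ratio was 2.38-fold higher after siCHKA, a log2 difference of 1.25 (two-sided exact permutation p = 0.00216, 0.00649 adjusted over 3 ratios). Both genes were already called in opposite directions, so the ratio restates those changes. How many other gene pairs separate the groups in this way was not counted. It was 5.60 to 5.90 in replicates 1, 3 and 5 and 4.83 to 5.15 in replicates 2, 4 and 6, above all siNT samples in both sets.

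**Figure D2:**
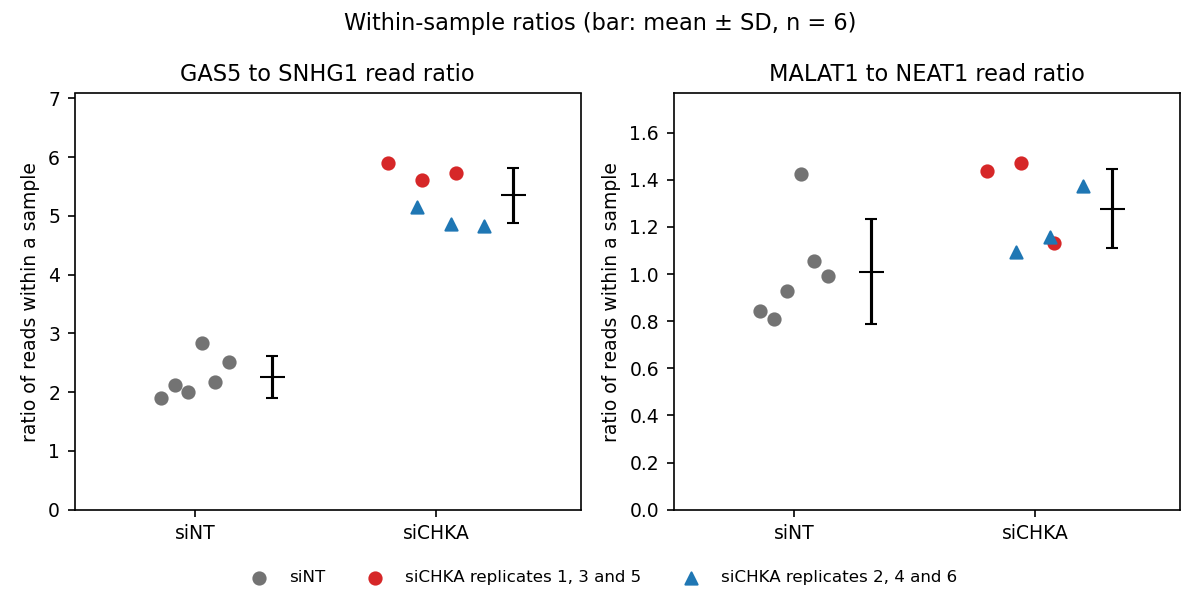
Ratio of reads within each sample for GAS5 to SNHG1 and for MALAT1 to NEAT1 (linear axes from 0), with siNT in grey, siCHKA replicates 1, 3 and 5 as red circles, 2, 4 and 6 as blue triangles, and mean ± SD of 6 samples. The GAS5 to SNHG1 ratio lies between 4.83 and 5.90 in siCHKA samples and between 1.90 and 2.83 in siNT samples, and the MALAT1 to NEAT1 ratios overlap.

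NEAT1 (ENSG00000245532; chromosome 11, 65422774 to 65445540, plus strand) was not called. After siNT it was at 238.9, 259.1, 245.2, 105.6, 204.9 and 210.4 CPM, replicate 4 being far below the others. After siCHKA it was at 130.5, 224.4, 141.8, 261.5, 174.6 and 175.1 CPM, and the groups overlapped. The log2 fold change was −0.19 (SE 0.19, edgeR adjusted p = 0.396; exact permutation p = 0.489), with a 95% interval from −0.59 to 0.21. Without siNT replicate 4 it was −0.34 and was called in edgeR (adjusted p = 0.0493). It was −0.50 in replicates 1, 3 and 5 (adjusted p = 0.0312 in edgeR) and 0.06 in replicates 2, 4 and 6. Short and long NEAT1 forms share one gene count here and were not told apart.

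MALAT1 (ENSG00000251562; chromosome 11, 65497640 to 65508073, plus strand) lies 52.1 kb from NEAT1. After siNT it was at 201.0, 209.8, 228.0, 150.4, 216.5 and 209.0 CPM, with replicate 4 again the lowest. After siCHKA it was at 187.5, 245.3, 208.7, 303.0, 197.5 and 240.9 CPM, and replicates 2, 4 and 6 exceeded every siNT sample. The log2 fold change was 0.19 (SE 0.11, edgeR adjusted p = 0.153; exact permutation p = 0.245), with a 95% interval from −0.05 to 0.42. It was 0.37 in replicates 2, 4 and 6 (adjusted p = 0.00599 in edgeR) and −0.03 in replicates 1, 3 and 5, and with library totals alone it was 0.34 and was called (adjusted p = 0.0190 in edgeR). The ratio of MALAT1 to NEAT1 was 1.28 ± 0.169 with siCHKA and 1.01 ± 0.223 with siNT (SD, n = 6 each), a log2 difference of 0.36 that did not pass after adjustment (exact permutation p = 0.0346, 0.0519 adjusted over 3 ratios). Without siNT replicate 4, whose ratio was the highest of its group, the difference was 0.46 (exact permutation p = 0.00433).

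PVT1 (ENSG00000249859; chromosome 8, 127794526 to 128187101, plus strand) was at 26.0, 28.9, 24.9, 21.5, 24.7 and 23.9 CPM after siNT. After siCHKA it was at 18.6, 32.6, 18.7, 32.2, 18.6 and 27.2 CPM. Replicates 1, 3 and 5 were below every siNT sample, while replicates 2 and 4 were above every one and replicate 6 lay within the siNT range. The log2 fold change over all 6 was −0.02 (SE 0.14, edgeR adjusted p = 0.935; exact permutation p = 0.721), with a 95% interval from −0.32 to 0.29. Taken separately against siNT, replicates 1, 3 and 5 were lower (−0.43, adjusted p = 0.000374 in edgeR) and replicates 2, 4 and 6 higher (0.28, adjusted p = 0.00957 in edgeR). The sign for all 6 depended on the scaling, and was positive with library totals alone (0.14).

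**Figure D3:**
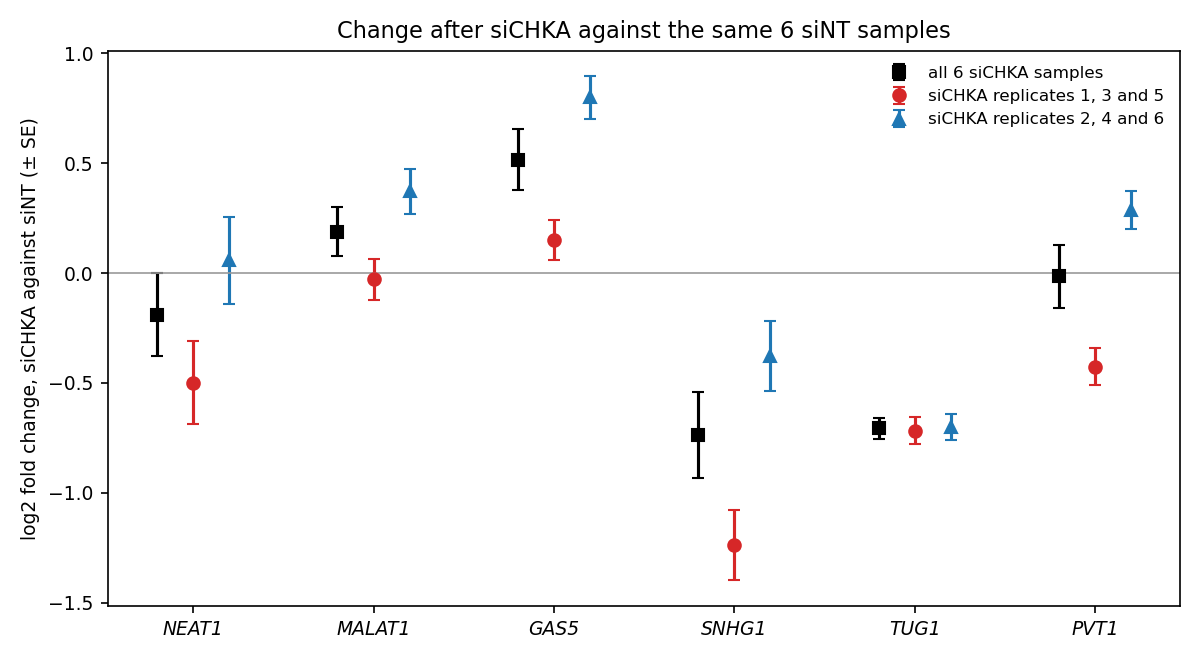
Log2 fold change ± SE of siCHKA against the same 6 siNT samples for all 6 siCHKA samples (black), replicates 1, 3 and 5 (red) and replicates 2, 4 and 6 (blue). TUG1 has nearly the same value in each, PVT1 is at −0.43 and 0.28 in the 2 sets, and GAS5 is higher and SNHG1 less low in replicates 2, 4 and 6.

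In replicates 1, 3 and 5 alone, 4 of the 6 RNAs were lower and none was higher, against 29.3% of genes lower and 30% higher in that comparison. In replicates 2, 4 and 6 alone, 1 was lower and 3 were higher, against 30.7% lower and 31.5% higher. The within-group spread of log2 CPM was above that of 99.6% of genes of like level for NEAT1, 95.2% for MALAT1, 97.4% for GAS5, 99.8% for SNHG1 and 97.7% for PVT1. For TUG1 it was above that of 11.5%. When each siCHKA set was summed to 1 sample, leaving 2 siCHKA against 6 siNT samples, TUG1 (−0.72, adjusted p = 7.67e-06), SNHG1 (−0.75, adjusted p = 0.0165) and GAS5 (0.51, adjusted p = 0.0112) were still called in edgeR.

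PCA3 (ENSG00000225937; chromosome 9, 76691980 to 76863307, plus strand) was detected at the edge of this depth. Its 37 reads in siCHKA samples, 2 to 9 per sample, correspond to 0.328 CPM (95% exact Poisson interval 0.231 to 0.452), and its 40 reads in siNT samples, 2 to 13 per sample, to 0.427 CPM (0.305 to 0.581). The intervals overlapped and cover counting error only. PCA3 failed the expression filter, and without a filter its log2 fold change was −0.40 (SE 0.40, edgeR adjusted p = 0.480). PRUNE2, the protein-coding gene around it, was at 1244 ± 149.7 CPM with siCHKA and 988.8 ± 211.6 CPM with siNT (SD, n = 6 each), a rise of 0.33 on the log2 scale (SE 0.12, edgeR adjusted p = 0.0236). The log2 ratio of PCA3 to PRUNE2 differed by −0.64 (exact permutation p = 0.162, also 0.162 adjusted over 3 ratios) and without siNT replicate 3 by −0.84 (exact permutation p = 0.0433, unadjusted). PCGEM1 (ENSG00000227418; chromosome 2, 192749845 to 192776899, plus strand) had 0 of 205774878 reads, which allows a level of up to 0.0145 CPM over all samples, taking 3 counts as the floor.

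Levels of different genes can be compared only per length. In siNT samples, per kb of all annotated exons, GAS5 was at 50.5 ± 7.02 CPM (SD, n = 6), TUG1 at 33.0 ± 1.88, SNHG1 at 28.5 ± 6.99, MALAT1 at 19.4 ± 2.59, NEAT1 at 9.25 ± 2.44 and PVT1 at 0.982 ± 0.0963 CPM. TUG1 and SNHG1 were within 1 SD of each other. These lengths come from GENCODE 44 and not from the older models on which reads were counted, and with the longest transcript in place of all exons PVT1 was at 10.2 CPM per kb, above NEAT1. With the canonical transcript GAS5 was at 324.2 and SNHG1 at 97.6 CPM per kb, so that SNHG1 stood above TUG1 at 44.8, and the order of levels depends on the length used. The kit selects poly(A) tails, which mature MALAT1 and long NEAT1 lack, so for these RNAs capture and level cannot be told apart.

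Among 25 tested snoRNA host genes, GAS5 and SNHG1 included, 8 were lower and 10 were higher, with a median of 0.03, beside 30.1% of all tested genes lower and 32.1% higher. NOP56, which encodes a core protein of snoRNA particles, fell by 0.55 on the log2 scale (SE 0.09, edgeR adjusted p = 2.67e-05), and SNHG16 fell by 0.41 (SE 0.08, adjusted p = 0.000357). SNHG14 was lower too (−0.83, SE 0.07, adjusted p = 1.82e-08), but it lies opposite UBE3A, and without a stated strand setting reads of the pair cannot be told apart. Among hosts that rose, SNHG10 went from 13.1 ± 1.63 to 31.6 ± 0.885 CPM (SD, n = 6 each, 1.26, edgeR adjusted p = 1.68e-10), SNHG9 from 10.7 ± 1.15 to 24.0 ± 3.21 CPM (1.16, adjusted p = 1.40e-08) and DANCR, an RNA that holds back differentiation, from 238.6 ± 27.5 to 399.1 ± 22.9 CPM (0.74, adjusted p = 9.16e-08). Of the 25 hosts, 20 had replicates 2, 4 and 6 all above 1, 3 and 5, beside 22.9% of all tested genes. Against siNT, 11 hosts were lower and 7 higher in replicates 1, 3 and 5 (median −0.12), beside 29.3% and 30% of all genes. In replicates 2, 4 and 6, 3 were lower and 13 higher (median 0.20), beside 30.7% and 31.5% of all genes.

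The factors of nonsense-mediated decay, which shortens the life of GAS5 and SNHG1, were called as often as all genes, 10 of 16 (62.5%) beside 62.2%. Of these, 9 fell and 1 rose, beside 30.1% and 32.1% of all genes, with a median of −0.21. The counts were 11 lower and 2 higher in replicates 1, 3 and 5 and 8 lower and none higher in replicates 2, 4 and 6. SMG5 fell by 0.52 (SE 0.04, edgeR adjusted p = 1.69e-08), the endonuclease SMG6 by 0.36 (SE 0.06, adjusted p = 5.43e-05) and EIF4A3, the anchor of the exon junction complex, by 0.27 (SE 0.04, adjusted p = 5.18e-05), all on the log2 scale. The helicase UPF1 was at 140.4 ± 11.9 CPM with siCHKA and 165.3 ± 12.7 CPM with siNT (SD, n = 6 each) (−0.24, edgeR adjusted p = 0.00402). The member that rose was UPF2, which joins UPF1 to the exon junction (0.23, SE 0.08, adjusted p = 0.0206 in edgeR), and it was not called in replicates 2, 4 and 6 alone (0.09, adjusted p = 0.347).

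Messages of the proteins that build paraspeckles around NEAT1 were lower in 22 of 24 tested genes, with none higher and a median of −0.43, beside 30.1% of all genes lower. NONO was at 271.0 ± 16.5 CPM with siCHKA and 404.1 ± 8.69 CPM with siNT (SD, n = 6 each) (−0.58, edgeR adjusted p = 2.14e-08). Its partner SFPQ was at 464.9 ± 50.2 and 603.9 ± 27.4 CPM (SD, n = 6 each, −0.38, edgeR adjusted p = 0.000106). DAZAP1 fell by 0.83 (adjusted p = 2.34e-10), NUDT21, a cleavage factor of pre-mRNA ends, by 0.76 (adjusted p = 1.27e-09) and HNRNPR by 0.74 (adjusted p = 5.52e-09) in edgeR on the log2 scale. The count was 20 lower and 1 higher in replicates 1, 3 and 5 and 21 lower and none higher in replicates 2, 4 and 6, while NEAT1 itself was at −0.50 and 0.06 there.

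Nuclear speckle proteins, the surroundings of MALAT1, were lower in 17 of 22 tested genes and higher in 1, with a median of −0.36, beside 30.1% of all genes lower and 32.1% higher. The splicing factors SRSF1, RNPS1 and U2AF1 fell by 0.72, 0.66 and 0.51 on the log2 scale (edgeR adjusted p = 2.66e-09, 5.33e-09 and 2.17e-08), and the kinase CLK4 was at 0.29 (edgeR adjusted p = 0.0435). The CLK4 call was lost in DESeq2 and in replicates 1, 3 and 5 alone (0.05, edgeR adjusted p = 0.726). Of 21 tested genes of nuclear RNA processing and decay, 12 were lower and 5 higher, beside the same 30.1% and 32.1%. The exonuclease XRN2 fell by 0.51, the nuclear exosome subunit EXOSC10 by 0.55 and the exosome helicase MTREX by 0.42 on the log2 scale (edgeR adjusted p = 7.45e-08, 2.39e-06 and 1.06e-05). Subunits of RNase P, whose enzyme cuts the end of MALAT1, went both ways. RPP40 and RPP38 rose by 0.51 and 0.45 (edgeR adjusted p = 5.35e-07 and 6.63e-06), while RPP30, POP1, RPP25 and POP7, named after their values were seen, fell by 0.37, 0.34, 0.29 and 0.13 (edgeR adjusted p = 0.000520, 6.22e-05, 0.0116 and 0.0434). METTL16, which binds the MALAT1 triple helix, rose by 0.38 (edgeR adjusted p = 0.000477).

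**Figure D4:**
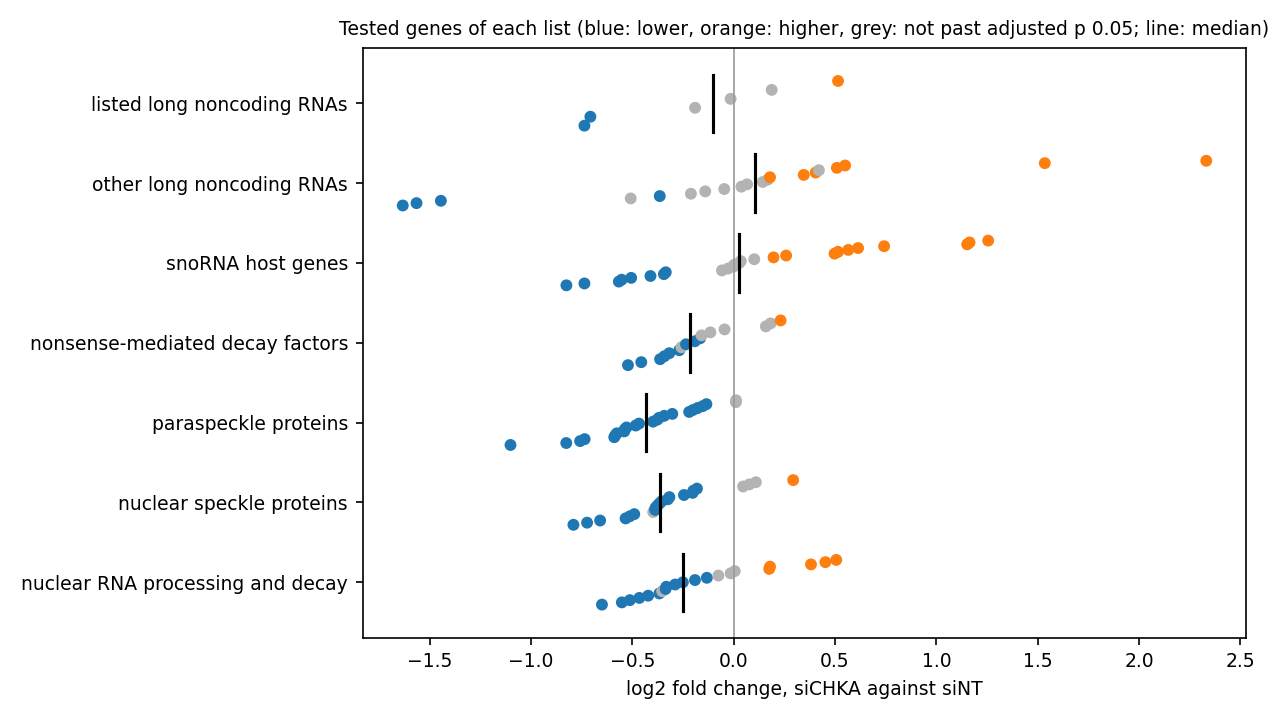
Log2 fold change of siCHKA against siNT for each tested gene of 7 lists (blue, lower; orange, higher; grey, adjusted p at or above 0.05), with the list median as a black line. Paraspeckle proteins have 22 of 24 genes lower and no gene higher, while snoRNA host genes spread to both sides of 0.

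Of 20 other tested long noncoding RNAs, 4 were lower and 7 higher, with a median of 0.10, and the 55% called is below the 62.2% of all genes. Of all lncRNA genes 8.42% were lower and 49.5% higher. The prostate cancer RNAs among them went both ways. PCAT1 and DRAIC were lower: PCAT1 was at 0.597 ± 0.103 CPM with siCHKA and 1.87 ± 0.584 CPM with siNT (SD, n = 6 each), and DRAIC was at 0.722 ± 0.335 and 2.25 ± 0.524 CPM (edgeR adjusted p = 1.01e-05 and 2.97e-05). DLEU2, whose introns hold miRNAs, was also lower (−1.44, SE 0.11, adjusted p = 9.98e-09 in edgeR). The prostate cancer RNA PCAT6 rose from 1.10 ± 0.179 to 5.66 ± 0.674 CPM (SD, n = 6 each, 2.33, SE 0.13, edgeR adjusted p = 1.45e-10), the antisense RNA SOCS2-AS1 by 1.53 (SE 0.17, adjusted p = 8.03e-07) and TP53TG1 by 0.55 (SE 0.08, adjusted p = 6.79e-06). PCAT7, a prostate cancer RNA named after its values were seen, rose by 0.51 (SE 0.16, edgeR adjusted p = 0.0111). The PCAT7 call was lost in replicates 2, 4 and 6 alone (0.42, edgeR adjusted p = 0.0694). All of these but TP53TG1 lay below 10 CPM.

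Among the androgen receptor and partners of these RNAs, 7 of 12 tested genes were lower and 2 higher, beside 30.1% and 32.1% of all genes. EZH2, the methyltransferase that several long noncoding RNAs are reported to bind, was at 35.5 ± 3.82 CPM with siCHKA and 76.4 ± 5.25 CPM with siNT (SD, n = 6 each) (−1.10, edgeR adjusted p = 4.47e-10). The helicase DHX9 fell by 0.74 and the deubiquitinase UCHL5 by 0.57 on the log2 scale (edgeR adjusted p = 4.91e-09 and 3.07e-08). PRUNE2 was among those called higher, but was not called in replicates 2, 4 and 6 alone (0.22, edgeR adjusted p = 0.185). MYC, 51.6 kb from PVT1, was at 232.5 ± 18.7 CPM with siCHKA and 333.0 ± 20.6 CPM with siNT (SD, n = 6 each) (−0.52, edgeR adjusted p = 1.07e-06), and it was lower in both siCHKA sets (−0.62 and −0.43), where PVT1 was at −0.43 and 0.28. NR3C1, the glucocorticoid receptor that GAS5 can bind, had 31 reads in all and was not tested.

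Within 100 kb of the 8 genes lay 38 tested genes, NEAT1 and MALAT1 included as neighbours of each other, of which 11 were lower, 11 higher and 16 not called, shares near the 30.1% and 32.1% of all genes. SLC3A2, which starts 0.05 kb from SNHG1 on the other strand, was lower (−0.29, SE 0.06, edgeR adjusted p = 0.000637), as was MORC2, 0.47 kb from TUG1 on the other strand (−0.48, SE 0.07, adjusted p = 2.29e-05). At GAS5, ZBTB37 was higher (0.32, SE 0.13, edgeR adjusted p = 0.0477). Beside NEAT1 and MALAT1, FRMD8 was lower (−0.32, edgeR adjusted p = 0.000456) and LTBP3 was higher (0.30, edgeR adjusted p = 0.000788). With the strand setting unstated the reads of overlapping pairs cannot be told apart.

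The genes most like each called RNA over the 12 samples were sought among the 9628 genes whose average was 10 CPM or more, by the root mean square difference of their centred log2 CPM. For TUG1 these were EPB41, at 0.0458, and the nuclear import receptor KPNB1, at 0.0463, where TUG1 itself varied by 0.357. For GAS5 they were SYTL1, at 0.0978, and NIPSNAP3A, at 0.103, where GAS5 varied by 0.364. For SNHG1 they were the centromere gene CENPT, at 0.118, and ZNF731P, at 0.162, where SNHG1 varied by 0.548. The search used the same samples as the comparison and describes likeness only.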

How the data were processed

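Per the labels RNA came from flow-sorted cells, a step that the study's methods do not name for these libraries. The authors made TruSeq mRNA libraries, aligned reads to GRCh37 with TopHat2 2.0.4 and counted them on Ensembl 64 genes with HTSeq 0.5.3p9; they tested with DESeq 1.10.1. They deposited raw counts per gene, 4 files per sample (48 in all), which were summed here because they differed by sampling noise only (chi-square divided by its degrees of freedom was 0.986 to 1.01). The strand setting of the counting is not given in the sources used here. Rows naming no gene held 33.9% to 39.0% of the counts and were left out.

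Groups came from the sample titles. Genes were named by Ensembl identifier from GENCODE 44 (82.8% of identifiers matched), whose GRCh38 coordinates are printed; the lists lacked genes without a matching identifier. edgeR 4.0.16 in R 4.3.3 was used with filterByExpr, TMM normalization, the quasi-likelihood test without covariates and Benjamini-Hochberg adjustment at 0.05. CPM use TMM library sizes, and log2 CPM a prior count of 2. Standard errors were derived from the log2 fold change and the square root of F, and intervals from the t distribution with edgeR's total degrees of freedom. Each of the 6 genes and the within-sample log2 ratios (0.5 added to each count) were also compared with two-sided exact permutation tests. With between 10685184 and 24246055 reads per sample, 3 counts equal 0.124 to 0.281 CPM. Genes of like level were within 0.5 log2 CPM.

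The 8 genes, the lists and the split of siCHKA samples were chosen with earlier results of these data known. Named genes were the 8, the partners NONO, SFPQ, NR3C1, MYC, PRUNE2, UPF1, METTL16 and MTREX, up to 3 list genes with the smallest p in each direction, neighbours within 100 kb, CHKA, and, for called RNAs with an absolute log2 fold change of at least 0.5, the 2 genes of most similar profile. Some genes that this rule names are not reported here. Alternatives were RLE size factors, library totals, DESeq2 1.42.0, other filters, the replicate number as a block, 1 count file per sample, the siCHKA sets alone or summed, each sample left out, and other lengths. On simulated counts for siCHKA against siNT (14060 genes), edgeR recovered 72.9% of 96 genes changed by 0.5 and 88.5% of 104 changed by 1 on the log2 scale, with 5 false calls. Only these genes were changed in the simulation, whereas 62.2% of tested genes were called in the data. It also held no sets among the siCHKA samples, so its rates do not carry over to the data. Python 3.11.15 with scipy 1.17.1 was used for the rest.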

Additional observations from a re-analysis of the deposited data

Results flagged for a closer look

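Of 18 groups of samples examined for a single distant sample, 2 held one, and chance alone gives about 1 in 20. Both were siNT replicate 4. For NEAT1 it was at a log2 CPM of 6.72, while the other siNT samples were between 7.68 and 8.02. For MALAT1 it was at 7.23, while the others were between 7.65 and 7.83. The groups are not independent of each other, since the same samples enter each.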

How the results depend on the processing

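Among all alternatives, TUG1 stayed lower and called, from −0.74 without an expression filter to −0.56 with library totals alone, and −0.73 to −0.69 with 1 sample left out. The GAS5 to SNHG1 log2 ratio stayed between 1.14 and 1.36, and between 1.21 and 1.32 with 1 sample left out. In each siCHKA set alone its exact permutation p was 0.0238, the smallest that 3 against 6 samples allow. These p-values were not adjusted over the 3 ratios, so no call is made for the sets alone. The siCHKA sets changed most other results. In replicates 1, 3 and 5 alone NEAT1 was −0.50, MALAT1 −0.029, GAS5 0.15 and PVT1 −0.43. In replicates 2, 4 and 6 alone NEAT1 was 0.058, MALAT1 0.37, SNHG1 −0.38, PVT1 0.28 and the MALAT1 to NEAT1 log2 ratio 0.28 (exact permutation p = 0.190). That ratio was 0.43 in replicates 1, 3 and 5 alone (exact permutation p = 0.0476). Both p-values are unadjusted. With library totals alone MALAT1 was 0.34 and PVT1 0.14, and with at least 10 counts in every sample PVT1 was 0.011. With each sample left out in turn, NEAT1 ranged from −0.34 (without siNT replicate 4) to −0.11, PVT1 from −0.11 to 0.056 (positive without siCHKA replicate 1, 3 or 5 or siNT replicate 2), the MALAT1 to NEAT1 log2 ratio from 0.30 to 0.46 (unadjusted exact permutation p from 0.00433 to 0.0693, above 0.05 without siCHKA replicate 1, 3 or 6 or siNT replicate 1, 2, 3 or 6) and the PCA3 to PRUNE2 log2 ratio from −0.84 (without siNT replicate 3) to −0.38. The cause of these changes was not tested. The counts of genes called ranged from 6880 with 1 count file per sample to 9661 with library totals alone, beside 9021. Per length, the longest transcript in place of all exons moved GAS5 to 79.2, TUG1 to 44.8 and PVT1 to 10.2 CPM per kb.

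The samples share only a replicate number: same-numbered samples deviated with correlations from −0.40 to 0.32, and 1 of 12 samples correlated best with its own number. With the replicate number as a block, 4273 genes were lower and 4494 higher, TUG1 was −0.71, SNHG1 −0.77 and GAS5 0.49, and no call among the 6 RNAs changed, while the call of CLK4 was lost. PCA3 had 77 reads in all and PCGEM1 had none, and the cause of these low counts was not tested.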
